A study of Mus musculus with 4 samples.

Results

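The B cells of day 0 were 339 of the 7350 barcodes kept in the day 0 library (4.61%, 95% Clopper-Pearson interval 4.14 to 5.12%), and 339 of the 33732 barcodes kept in the whole series. Kept barcodes had 500 or more genes with a UMI (unique molecular identifier, counted as 1 transcript) and mitochondrial genes in no more than 15% of their UMIs. A kept barcode was selected as a B cell when Cd79a, Cd79b and Ms4a1 together had at least 3 UMIs, at least 2 of these 3 genes had a UMI, and Cd3d and Cd3e had none. The counts of those 5 genes chose the members and are given below as a description only. All members came from lungs of Gramd2creERT2;mTmG mice, in which Gramd2, known from alveolar type I (AT1) cells, drives a Cre that tamoxifen activates and that replaces the membrane tdTomato reporter by a membrane EGFP. The day 0 sample held cells of the lung gated as GFP+ by flow cytometry, labelled as alveolar epithelial cells, and neither the number of mice nor their age is stated in the labels. The labels call the molecule nuclear RNA, although single-cell suspensions were loaded. The organoid samples of days 8, 13 and 20 were grown from such sorted cells of the same genotype with MLg fibroblasts, a mouse lung line, in Matrigel with SB 431542, an inhibitor of TGF-beta receptors, and were enriched for EpCAM-positive cells. Each day had 1 library, so no difference carries a test, and every interval covers counting error only, at the 95% level.

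B cells are lymphocytes that carry an antibody on their surface as an antigen receptor. The receptor consists of heavy and light immunoglobulin chains joined to the signalling proteins Cd79a and Cd79b, and its signal runs through the kinases Syk and Btk and the adaptor Blnk. The transcription factors Ebf1 and Pax5 establish and keep B cell identity, and B cells present antigen to T cells on MHC class II molecules. Each B cell normally uses a light chain of the kappa or of the lambda class. After activation some B cells become plasma cells, which lose Pax5 and much of the surface receptor, gain Prdm1, Irf4 and Xbp1, and secrete large amounts of antibody. At mucosal surfaces such as the airway the secreted antibody is often IgA, whose heavy chain is encoded by Igha and whose units are joined by the J chain, encoded by Jchain.

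The day 0 library held 8902 barcodes and 31850454 UMIs, with a median of 2558 UMIs per kept barcode. The 339 members had between 774 and 54138 UMIs with a median of 2707, a median of 1111 detected genes and a median of 4.48% mitochondrial UMIs. The other 7011 kept barcodes, called the rest, had a median of 2546 UMIs, 1308 genes and 3.84% mitochondrial UMIs. Another 24 barcodes met the gene counts but were not kept. Of the 8902 barcode sequences, 41, 37 and 25 also occurred in the libraries of days 8, 13 and 20, and 3, 0 and 1 of the 339 members were among them. No member shared its barcode with a barcode of another day that met the same rule.

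Among 551 kept barcodes with enough Cd79a, Cd79b and Ms4a1 UMIs, 212 (38.5%) were left out because they held Cd3d or Cd3e UMIs, genes of the T cell receptor complex. Those 212 had a median depth of 9822 UMIs and a median of 5 Cd3d and Cd3e UMIs, with a highest count of 66. At least 2 UMIs of a list of 5 thymocyte genes were found in 65.1% of them. The 18 members just inside the threshold, with 3 UMIs of the 3 genes, had 53334 CPM (UMIs per 1000000 UMIs of the summed barcodes) of Igkc, 594 of Ighm, 6073 of Cd74 and 632 of Ebf1. The 16 barcodes just outside, with 2 UMIs over 2 genes and no Cd3d or Cd3e, had 47046, 437, 2037 and 315 CPM of the same 4 genes. Immunoglobulin-rich barcodes, with at least 10% immunoglobulin UMIs, carried most of the Igkc: 2 of the 18 held 95.4% of its 2784 UMIs just inside, and 1 of the 16 held 79.1% of its 1940 UMIs just outside. Without them Igkc had 2814 CPM in the 16 barcodes left inside and 10618 CPM in the 15 left outside, while Ighm, Cd74 and Ebf1 had 687, 6669 and 731 CPM inside and 471, 2066 and 340 CPM outside.

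Cd79a (chr7:24897381-24902197, plus strand), which encodes the alpha signalling chain of the receptor, had a UMI in 337 of 339 members, with 0, 7 and 61 UMIs as the lowest, median and highest counts. Cd79b (chr11:106311341-106314762, minus strand), which encodes the beta chain, had a UMI in 324 members. Ms4a1 (chr19:11249675-11266241, minus strand), which encodes the surface protein CD20, had a UMI in 238 members. The 3 genes summed to 3, 11 and 88 UMIs per member as the lowest, median and highest values. All gene positions are those of GENCODE M21 on GRCm38, the assembly called mm10 in the submitters' processing notes.

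Apart from the genes of the rule, the members carried receptor, transcription factor and immunoglobulin transcripts of B cells. Ebf1 had a UMI in 302 of 339 members and in 11.8% of the rest, and Ly6d, a surface protein of B lineage cells, in 296 members and in 5.68% of the rest. Igkc, the constant region of the kappa light chain, had a UMI in 332 members. The label of the sample did not describe these cells: the AT1 genes Ager and Hopx had 121 and 138 CPM in B cells, against 1346 and 1088 CPM in the rest. The 339 barcodes are called B cells below.

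Fold differences between B cells and the rest were taken from summed UMIs. Only genes that reached 50 CPM in either class were examined, and a gene counted as higher or lower from a CPM ratio of 2-fold on. A class with fewer than 3 UMIs was set to 3 UMIs for the ratio. Of 3602 genes, 154 (4.28%) were higher and 745 (20.7%) were lower in B cells than in the rest, and the median log2 ratio was -0.36. These percentages are the background for each count of list members below, and since the members were picked by their receptor genes the counts are descriptive. Leaving immunoglobulin genes out of the CPM sum raises every log2 ratio against the rest by 0.18. The counts depend on the members and on the averaging: 277 were higher and 1218 lower without the members that held UMIs of other cell types' lists, described below, and 278 were higher and 1066 lower by the mean of per-cell CPM.

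**Figure D1:**
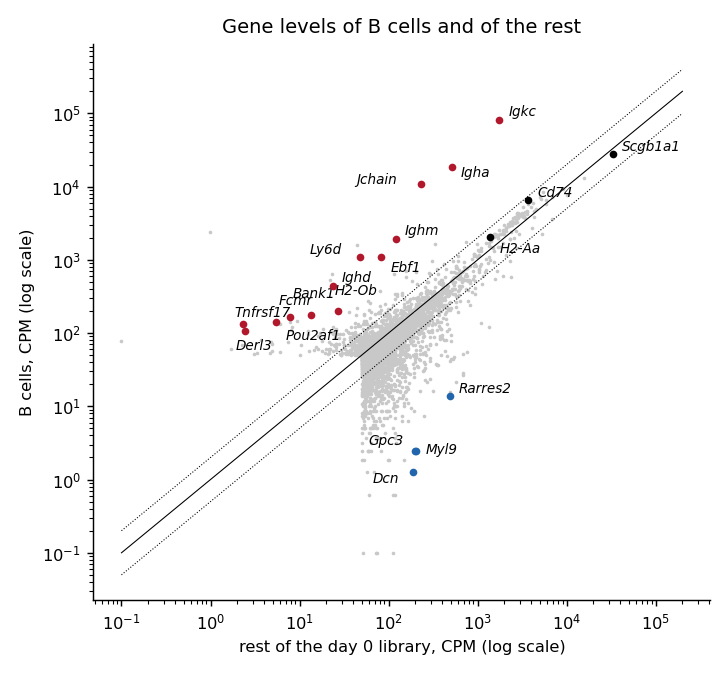
Level of each of the 3602 examined genes, in CPM on log scales, in B cells (vertical axis) and in the rest of the day 0 library (horizontal axis). The solid line marks equal levels, the dotted lines 2-fold differences, and levels of 0 are drawn at 0.1. Red points such as Jchain (10947 CPM in B cells, 233 in the rest) lie above the upper dotted line, blue points such as Rarres2 (13.7 CPM in B cells, 489 in the rest) below the lower one, and Cd74 and H2-Aa lie between them.

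Of 15 genes with the largest ratios among those with at least 100 CPM, most encode known B cell proteins. Ly6d reached 1088 CPM in B cells, against 48.3 CPM in the rest (22.5-fold, interval 21 to 24.2). Fcmr, the receptor for the constant part of IgM, had 165 CPM in B cells, against 7.79 CPM in the rest (21.2-fold, 17.7 to 25.4). These genes were spread over many members, since Ly6d was seen in 87.3% and Fcmr in 42.8% of them. Fcrla, Siglecg and Bank1, an Fc receptor-like protein, an inhibitory lectin and a scaffold of receptor signalling, were higher by 14.6-fold, 13.7-fold and 13.3-fold. Tnfrsf17, the survival receptor BCMA of plasma cells, had the highest ratio of the 15, at 133 CPM in B cells and 2.33 CPM in the rest (57.1-fold, 43.3 to 76.1). Tnfrsf17 was present in only 35 of 339 members, and Derl3 (108 CPM in B cells, 2.44 CPM in the rest), which acts in the disposal of misfolded proteins, in only 36.

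Transcription factors of the B lineage were higher as a group. Of 15 examined factors 9 were higher and 0 lower in B cells, with a median log2 ratio of 1.86 against -0.36 over all examined genes. Ebf1 (chr11:44617317-45008091, plus strand) had 0, 4 and 20 UMIs as the lowest, median and highest count in the 300 members with little immunoglobulin described below. Its summed level was 1083 CPM in B cells, against 82.7 CPM in the rest (13.1-fold, 12.3 to 13.9). Pax5 had 142 CPM in B cells and 7.79 CPM in the rest, and Pou2af1, a coactivator of octamer-binding factors, 143 CPM in B cells and 5.49 CPM in the rest. Spib, Pou2f2, Ikzf3, Bach2, Bcl11a and Mef2c were the other 6 that were higher, by 2.86-fold for Pou2f2 to 10.1-fold for Spib. Spi1, Ikzf1 and Irf8, which other blood cells also express, were not among them: Spi1 had 186 CPM in B cells and 227 CPM in the rest, Ikzf1 121 CPM in B cells and 132 CPM in the rest, and Irf8 153 CPM in B cells and 119 CPM in the rest. Some of the 9 higher factors were shared with other cells too. Ebf1 had 523 CPM in smooth muscle cells, against 1083 CPM in B cells. Pou2f2 had 337 CPM in B cells and 687 CPM in monocytes, and Bach2 97.8 CPM in B cells and 63.6 CPM in mature T cells.

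Genes of the receptor pathway followed a graded pattern, with those restricted to B cells at the top. Of 14 examined signalling genes 8 were higher and 1 lower, with a median log2 ratio of 1.13. The Src-family kinase Blk had 71.6 CPM in B cells, against 4.87 CPM in the rest (14.7-fold, 11.4 to 18.9), and the adaptor Blnk 106 CPM in B cells, against 12.3 CPM in the rest (8.64-fold, 7.16 to 10.4). Syk, Btk, Malt1, Prkcb and Plcg2 were higher by 2.18-fold to 2.74-fold. Lyn, a kinase that myeloid cells also use, had 187 CPM in B cells and 152 CPM in the rest, and Pik3ap1 57.3 CPM in B cells and 76 CPM in the rest. Cd81, a tetraspanin that many cell types express, was the gene that was lower, at 178 CPM in B cells and 367 CPM in the rest. Cr2, a complement receptor, stayed under the 50 CPM minimum, at 46.7 CPM in B cells and 2.09 CPM in the rest.

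Inhibitors of the receptor signal were also present. Of 8 examined inhibitors 4 were higher and 0 lower, with a median log2 ratio of 1.5. These were the lectins Cd22 (77.8 CPM in B cells, 18 in the rest) and Siglecg (109 CPM in B cells, 7.96 in the rest), Cd72 (99.6 CPM in B cells, 17.1 in the rest) and Fcrl1 (52.3 CPM in B cells, 3.05 in the rest). The phosphatases Ptpn6 and Inpp5d, used across blood cells, had ratios of 1.63 and 1.86. Cd5, an inhibitor carried by T cells and by B-1 cells, had 3.11 CPM in B cells, with a UMI in 5 of 339 members. Of the 10 genes of B cell identity, all examined, 8 were higher and 0 lower; the exceptions were Cd24a (267 CPM in B cells, 220 in the rest) and Ptprc (534 CPM in B cells, 515 in the rest), which many blood and epithelial cells or all white blood cells express.

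The windows from 250 bases before to 50 bases after the transcription start were searched for motifs in those list genes that were higher in B cells and had such a window in the RefSeq tables. Of 59 such genes 42 had a window. The motifs were ATGCAAAT, the octamer bound by Pou2f factors together with Pou2af1, and the Ebf1 core, TCCC and GGGA with 2 bases of any kind between them, each searched on both strands; they do not overlap. The octamer was found in 3 of 42 windows (7.14%), against 570 of 32851 windows of all genes (1.74%). The Ebf1 core was found in 1 of 42 (2.38%), against 297 of 32851 (0.904%). A match describes the letters in the window and does not show that a factor binds there. The 4 windows with a match are printed because they belong to receptor pathway genes and to Vpreb3, described below, and capitals mark the motif. They are RefSeq sequence of GRCm38.p6 in the direction of transcription. Blnk lies at chr19:40994172-40994471 (minus strand), Cd22 at chr7:30878979-30879278 (minus strand), Prkcb at chr7:122288875-122289174 (plus strand) and Vpreb3 at chr10:75948050-75948349 (plus strand).
Blnk: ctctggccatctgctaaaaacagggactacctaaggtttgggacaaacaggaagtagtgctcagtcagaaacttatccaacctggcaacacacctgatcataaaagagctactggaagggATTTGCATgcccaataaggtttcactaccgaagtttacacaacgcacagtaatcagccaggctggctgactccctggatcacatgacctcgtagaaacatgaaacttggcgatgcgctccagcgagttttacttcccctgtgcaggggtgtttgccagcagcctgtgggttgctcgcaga
Cd22: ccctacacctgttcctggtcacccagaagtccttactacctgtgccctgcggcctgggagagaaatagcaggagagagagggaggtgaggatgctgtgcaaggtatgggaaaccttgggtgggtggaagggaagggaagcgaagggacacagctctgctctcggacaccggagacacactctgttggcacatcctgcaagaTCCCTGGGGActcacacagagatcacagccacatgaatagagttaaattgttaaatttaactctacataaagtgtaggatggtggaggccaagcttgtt
Prkcb: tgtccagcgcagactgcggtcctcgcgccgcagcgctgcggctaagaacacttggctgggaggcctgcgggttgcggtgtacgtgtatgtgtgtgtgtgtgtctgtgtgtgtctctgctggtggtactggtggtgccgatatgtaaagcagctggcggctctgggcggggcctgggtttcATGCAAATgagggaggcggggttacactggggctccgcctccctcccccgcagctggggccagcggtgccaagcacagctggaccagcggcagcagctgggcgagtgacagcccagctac
Vpreb3: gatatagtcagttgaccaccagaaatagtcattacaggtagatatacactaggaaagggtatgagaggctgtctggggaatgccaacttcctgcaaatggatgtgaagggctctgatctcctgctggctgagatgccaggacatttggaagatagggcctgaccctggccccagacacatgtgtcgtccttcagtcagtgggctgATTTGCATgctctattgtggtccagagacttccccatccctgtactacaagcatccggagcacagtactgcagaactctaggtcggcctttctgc
The octamer began 130 bases before the start of Blnk, 70 before that of Prkcb and 45 before that of Vpreb3, and the Ebf1 core 49 before that of Cd22. It read ATTTGCAT, the reverse complement, in Blnk and Vpreb3, and ATGCAAAT in Prkcb.

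Antigen presentation genes differed in how far they exceeded the rest. Of 11 examined MHC class II genes 4 were higher and 0 lower, with a median log2 ratio of 0.56. The chains H2-Aa, H2-Ab1 and H2-Eb1, shared by all presenting cells, had ratios of 1.48, 1.39 and 1.3, and the invariant chain Cd74 had 6486 CPM in B cells and 3694 CPM in the rest (1.76-fold). H2-Aa had a UMI in 91.4% of members, against 27.9% of the rest, although its summed level differed by less than 2-fold. The genes that were higher were H2-Ob (7.32-fold, 6.41 to 8.34) and H2-Oa (4.34-fold, 3.67 to 5.13), which encode the modulator of peptide loading that B cells carry, H2-DMb2 (5.37-fold) and the class II transactivator Ciita (3.2-fold). These 4 genes were not particular to B cells. In 10 dendritic barcodes H2-Ob, H2-Oa, H2-DMb2 and Ciita had 452, 192, 205 and 219 CPM, against 200, 110, 192 and 98.4 CPM in B cells. H2-DMb2 and H2-DMb1 are close copies, and how reads shared between them were counted is not given in the sources used here. H2-DMb1 had 118 CPM in B cells and 122 CPM in the rest.

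Receptors for homing and survival included those of recirculating B cells. Of 9 examined homing genes 6 were higher and 0 lower. Fcer2a, the low-affinity IgE receptor of follicular B cells, had 56.7 CPM in B cells, against 4.94 CPM in the rest (11.5-fold). Gpr183, Ltb, Ccr7, Cxcr4 and Itga4, which guide or retain lymphocytes in tissues, were higher by 2.48-fold to 3.61-fold. Cxcr5, the follicle homing receptor, stayed under 50 CPM at 21.8 CPM in B cells and 1.68 CPM in the rest. Of 7 examined genes of survival and T cell help 4 were higher and 0 lower. They were the receptors of the BAFF family Tnfrsf13c (74.7 CPM in B cells, 4.81 in the rest), Tnfrsf13b (120 CPM in B cells, 23.7 in the rest) and Tnfrsf17, and Ly86, a partner of the receptor-like protein Cd180.

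Few genes of more specialised or immature B cells were higher. Of 4 examined genes of marginal zone and B-1 cells 0 were higher and 1 was lower: the tetraspanin Cd9 had 546 CPM in B cells and 1569 CPM in the rest. The only examined gene of the germinal centre list was Fas, with 37.4 CPM in B cells and 63.4 CPM in the rest. Of 3 examined genes of atypical memory cells 0 were higher and 1 (Itgax) was lower. Of 8 examined genes of B cell precursors 1 was higher and 7 were lower, with a median log2 ratio of -2.30; Rag1 had 14.9 CPM in B cells and 72.4 CPM in the rest, and Vpreb1 had 0 UMIs in B cells. The exception was Vpreb3, a surrogate light chain-like protein that mature B cells also express, with 176 CPM in B cells and 43.2 CPM in the rest (4.07-fold, 3.56 to 4.63) in 141 members. Vpreb3 was not particular to B cells in this library, since ciliated cells had 413 CPM of it. The 7 lower precursor genes reached the 50 CPM minimum only in the rest, where cells other than B cells carry some of them. Il7r had 1090 CPM in mature T cells and Cd93 1295 CPM in endothelial cells. The lower levels of these 7 genes therefore do not describe how mature the B cells were.

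Of 11 examined early activation genes 2 were higher and 3 lower. Cd69, an early activation marker that also retains lymphocytes in tissue, had 181 CPM in B cells and 52.6 CPM in the rest, and the phosphatase Dusp2 had 255 CPM in B cells and 62.7 CPM in the rest. The immediate early genes Fos (390 CPM in B cells, 785 in the rest), Jun (217 CPM in B cells, 469 in the rest) and Egr1 (106 CPM in B cells, 297 in the rest) were lower. Of 5 examined cycling genes 0 were higher and 3 lower, and of 2 examined interferon response genes 0 were higher and 0 lower. Plasma cell genes were higher for 7 of 10 examined genes and lower for 0, with a median log2 ratio of 2.05, but the UMIs came from few members, as described below.

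Genes that mark other lung cells gave the opposite picture. The 10 genes with the lowest ratios among those with at least 100 CPM were Dcn, Myl9, Saa3, Gpc3, Camp, Ogn, Upk3b, Msln, Clec3b and Rarres2, most of which are known from fibroblasts, smooth muscle or mesothelium. The smooth muscle light chain Myl9 had 2.49 CPM in B cells and 205 CPM in the rest (82.1-fold lower, 32.1 to 302). Ogn, a matrix proteoglycan, had 0 UMIs in B cells and 113 CPM in the rest. With a floor of 3 UMIs over the members it was 60.7-fold lower (20.8 to 295). Every examined gene of the endothelial (6), AT1 (6), ciliated (3), smooth muscle (4), fibroblast (3), mesothelial (2) and thymocyte (3) lists was lower. Of 7 examined T cell genes 6 were lower, of 4 macrophage genes 3, of 5 neutrophil genes 1, of 6 monocyte genes 1, and also the single examined gene of the natural killer and of the dendritic list. The monocyte gene Ly6c2 was higher, at 131 CPM in B cells and 56.7 CPM in the rest, and its UMIs came from few members, as described below. None of 3 examined club cell genes was higher or lower, and no erythroid gene was examined. The club cell gene Scgb1a1 had 27484 CPM in B cells and 33412 CPM in the rest. Its level in B cells depended on 1 member, which held 22540 UMIs of it. In the 173 members without UMIs of other lists, described below, Scgb1a1 had 5724 CPM.

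Of 4 examined alveolar type II (AT2) genes 3 were lower, while Napsa was higher. Napsa, which encodes an aspartic protease that helps process surfactant protein in AT2 cells, had 326 CPM in B cells and 143 CPM in the rest (2.28-fold, 2.08 to 2.5). It had a UMI in 65.8% of members, with 0, 1 and 10 UMIs as the lowest, median and highest counts in 300 of them. Other classes had a UMI in 63.2% (monocytes), 38.4% (macrophages), 5.8% (mature T cells) and 3.31% (AT1 cells) of their barcodes. After thinning each barcode to 1000 UMIs the share was 34.5% in B cells, 29.5% in monocytes and 1.77% in AT1 cells. Sftpc, the surfactant protein gene that defines AT2 cells, was lower in B cells at 575 CPM, against 2349 CPM in the rest, and 27.7% of members and 31.5% of the rest had a UMI of it.

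UMIs of other lung cells' marker lists were present in many members, as they were in the rest. At least 2 UMIs of a list were found in 338 members for the 5 club cell genes, 163 for the 6 AT2 genes, 85 for monocytes, 63 for AT1 cells, 55 for alveolar macrophages, 45 for T cells, 43 for neutrophils, 32 for endothelium and 28 for ciliated cells. In the rest, 99.6% of barcodes held at least 2 UMIs for club genes, 35.8% for monocytes and 31.6% for T cells. The shares of members were 99.7%, 25.1% and 13.3%. Among these lists the members clearly exceeded the rest only for AT2 genes, Napsa included, at 48.1% against 23.7%. The summed list levels ran from 1 to 24464 UMIs per member for club genes, 0 to 867 for AT2 genes, 0 to 232 for macrophages, 0 to 518 for neutrophils, 0 to 51 for monocytes, 0 to 49 for AT1 genes and 0 to 61 for endothelium. Of the T cell list Cd3d and Cd3e were at 0 by the rule, of the fibroblast list Pdgfra and Tcf21, and of the thymocyte list Rag2. Leaving the club and AT2 lists aside, 173 members held fewer than 2 UMIs of every other list and 166 held at least 2 of some list. The 173 had a median of 2070 UMIs and the 166 a median of 4682. Below, the 173 are called the members without UMIs of other lists, although they could hold 1 UMI of a list. Of the 39 members with much immunoglobulin, described below, 28 were among the 166. Ly6c2 and Cd28, of the monocyte and T cell lists, each had a UMI in 21 of those 39, so the split also sorts members by these genes.

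Several B cell genes were higher in the members without UMIs of other lists. In 162 of those 173 members, leaving out 11 with much immunoglobulin, Ebf1 had 2346 CPM, Ly6d 2135, Cd74 10087, H2-Aa 3364 and Ighm 2764 CPM. All 300 members with little immunoglobulin had 1405, 1299, 8158, 2732 and 1822 CPM of these genes. Ptprc went the other way, at 559 CPM in the 162 and 701 CPM in the 300. The same 162 had 576 CPM of Napsa, which had a UMI in 67.9% of them, and 129 CPM of Lyz2, lysozyme of myeloid and AT2 cells. Lyz2, which is in none of the lists but shares its cells with them, had 2281 CPM over all 339 members. Whether the myeloid and epithelial UMIs were captured with a second cell or as free RNA was not tested.

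Mature T cells are the class most like B cells in size and function, and 414 barcodes with Cd3 genes, without precursor genes and without a UMI of the 3 B cell genes were set against them. The median depth was 2707 UMIs in B cells and 2578 UMIs in these T cells. Of 3041 examined genes 401 (13.2%) were higher and 268 (8.81%) lower in B cells, with a median log2 ratio of -0.15. With immunoglobulin genes left out of the CPM sum, which raises every ratio by 0.19 on the log2 scale, 529 were higher and 188 lower. In the 173 members without UMIs of other lists alone, 284 were higher and 377 lower. Ebf1 had 1083 CPM in B cells and 10.9 CPM in T cells (99.7-fold, 58.1 to 188), and Ly6d 1088 CPM in B cells and 14.2 CPM in T cells (76.6-fold, 47.7 to 132). Pou2af1 had 143 CPM in B cells and 0 UMIs in T cells, 56.8-fold higher (19.2 to 278) with a floor of 3 UMIs. Vpreb3, Fcmr and Pax5 had 176, 165 and 142 CPM in B cells, with 2, 1 and 1 UMIs in all T cells. The remaining genes of the 8 with the largest ratios were Jchain and Scgb3a1, an airway secretoglobin with 98.3% of its UMIs in 1 member.

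The 8 genes lowest against T cells included those of the T cell receptor and its signalling. Trac, the alpha constant chain, had 4.36 CPM in B cells and 444 CPM in T cells (102-fold lower, 49.1 to 255). Ms4a4b, Lef1, Skap1 and Cd247 had 15.6, 8.72, 6.23 and 4.36 CPM in B cells, against 1151, 586, 347 and 216 CPM in T cells. Dapl1, Cd5 and Klk8 completed the 8. Of 7 examined genes of the T cell list 7 were lower, against the background of 8.81%.

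Lists that separated B cells from T cells were not always those that separated them from the rest. Of 11 examined MHC class II genes 8 were higher than in T cells, among them Cd74 (6486 CPM in B cells, 2651 in T cells) and H2-Aa (2.1-fold, 1.96 to 2.25). Of 14 signalling genes 10 were higher and 0 lower, with Syk at 251 CPM in B cells and 15.9 CPM in T cells. Markers of other cell types were higher along with these lists: 4 of 4 examined neutrophil genes, 3 of 3 macrophage, 4 of 6 monocyte, 3 of 3 club cell, 3 of 4 endothelial and 2 of 2 ciliated genes. The T cells had been chosen to meet the rule of no other class, and the B cells had not. Monocytes also carried Cd74 (6886 CPM) and Syk (188 CPM). In the 173 members without UMIs of other lists Cd74 and Syk had 8467 and 350 CPM, against 2651 and 15.9 CPM in T cells. The steps after the receptor that both lineages use differed by less than 2-fold: Malt1 had 184 CPM in B cells and 134 CPM in T cells, Bcl10 99 CPM in B cells and 86.1 CPM in T cells, and Prkcb 115 CPM in B cells and 69.4 CPM in T cells. Of 10 homing genes 2 (Cxcr4 and Fcer2a) were higher and 1 was lower: S1pr1, the receptor for exit from tissue, had 80.9 CPM in B cells and 251 CPM in T cells. Ccr7 had 143 CPM in B cells and 270 CPM in T cells, and Ltb 338 CPM in B cells and 669 CPM in T cells, both within 2-fold. Of 8 survival genes 4 were higher and 2 lower, and Bcl2, which blocks cell death, had 70.4 CPM in B cells and 383 CPM in T cells. Of 11 early activation genes 1 (Cd83) was higher and 0 lower, and of 8 inhibitors 4 were higher and 1 (Cd5) lower.

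Immunoglobulin transcripts made up 12.1% of all UMIs of the members and 0.276% of the UMIs of the rest, but they were unevenly shared. The immunoglobulin share of a member ran from 0% over a median of 1.6% to 80.9%. No member lay between 7 and 10%: 300 members had 6.88% or less, and 39 had 11.3% or more. A line at 10%, set after these values were seen, was used to describe the 39 as immunoglobulin-high members and the 300 as other members. It divides a measured range and names no cell type. The immunoglobulin-high members had a median share of 37.9%, against 1.49% for the other members. They were also deeper, with a median of 10284 UMIs (1321 to 28118), against 2440 UMIs (774 to 54138).

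**Figure D2:**
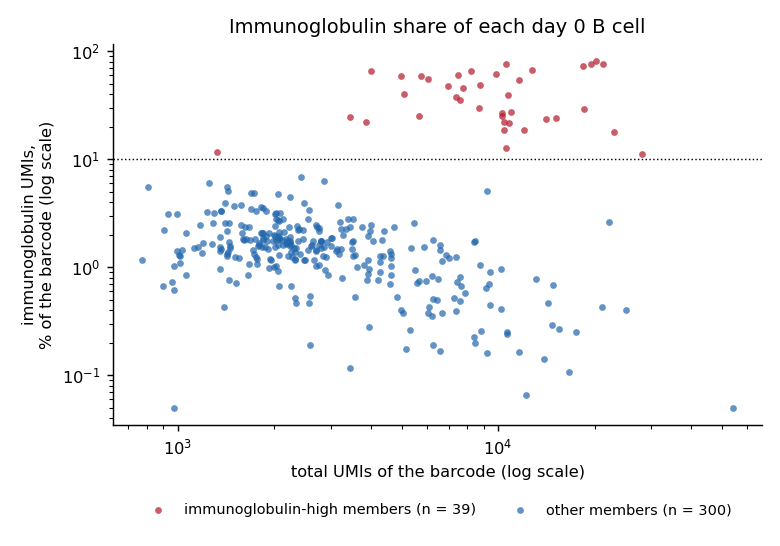
Immunoglobulin share of each of the 339 day 0 B cells (vertical axis, % of its UMIs, log scale) against its total UMIs (horizontal axis, log scale), with values under 0.05% drawn at 0.05. The 39 red points, at 11.3% or more, are immunoglobulin-high members and the 300 blue points, at 6.88% or less, other members, and the dotted line is at 10%.

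The kinds of chain differed between these members. Igha (chr12:113254830-113260236, minus strand) had 0, 507 and 3743 UMIs as the lowest, median and highest count in immunoglobulin-high members and was found in 35 of 39, and had 0, 0 and 192 UMIs in other members, in 25 of 300. Jchain (chr5:88519809-88527891, minus strand) had 16, 245 and 2144 UMIs in immunoglobulin-high members, all 39 of them, and a UMI in 7 of 300 other members. Igkc had 95, 2309 and 10931 UMIs in immunoglobulin-high members, against 0, 22 and 316 UMIs in other members, so that the groups overlapped at their edges. Ighm (chr12:113418558-113422730, minus strand), the heavy chain of IgM, went the other way in the number of cells, with a UMI in 5 of 39 immunoglobulin-high members and 279 of 300 other members. Ighd (chr12:113406604-113416324, minus strand), the heavy chain of IgD, had a UMI in 2 of 39 immunoglobulin-high members and 216 of 300 other members. Ighm and Ighd, which naive B cells express together, were both present in 2 immunoglobulin-high and 208 other members.

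The heavy chain with most UMIs was Igha in 34 immunoglobulin-high members, Ighm in 3, and Ighg1 and Ighg2b in 1 each. Among other members it was Ighm in 237, Ighd in 44, Igha in 14, Ighg2b and Ighg3 in 1 each, and 3 had no heavy chain UMI. A single member held 3813 of 3824 Ighg1 UMIs, so the Ighg1 level of 2381 CPM over all B cells is that of 1 barcode. All 10 examined immunoglobulin constant genes were higher in B cells than in the rest, and in other members alone 6 of 8 were higher. Against the rest, where 184 of 3718 genes (4.95%) were higher and 595 (16.0%) lower in other members, Ighm had 1822 CPM in other members and 120 CPM in the rest (15.2-fold). Ighd had 604 CPM in other members and 23.6 CPM in the rest (25.6-fold), and Igkc 6600 CPM in other members and 1757 CPM in the rest (3.76-fold). Igha had 346 CPM in other members and 516 CPM in the rest, and Jchain 85.4 CPM in other members and 233 CPM in the rest. Against this rest, their excess in B cells came from the 39 immunoglobulin-high members. The rest includes 35 barcodes with at least 10% immunoglobulin UMIs that missed the rule, described below. These held 12138 of the 15022 Igha UMIs and 39308 of the 51183 Igkc UMIs of the rest, so the Igha and Igkc comparisons depend on them.

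Variable segments were seen mostly in immunoglobulin-high members, as far as a 3' library covers them. With at least 5 UMIs of kappa variable segments, 31 immunoglobulin-high members used 21 different leading segments, the commonest in 5 members, and the leading segment held a median of 100% of these UMIs. For the heavy chain, 18 members with at least 5 UMIs used 15 leading segments, which held a median of 65.2%. The segment with most UMIs was Igkv1-110, with 131 UMIs in 5 members, and among heavy segments Ighv1-5, with 36 UMIs in 1 member. In other members a kappa variable UMI was found in 41 of 300, and 1 of them had 5 or more. Variable segments are near copies of each other, so reads could be assigned to a relative, and a shared segment does not show a shared clone.

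Light chain constant genes were compared within each member with at least 5 UMIs of Igkc (chr6:70726435-70726966, plus strand), Iglc1, Iglc2 and Iglc3 together. Of 334 such members 170 (50.9%, 45.4 to 56.4%) had at least 80% Igkc, 9 (2.69%, 1.24 to 5.05%) had at least 80% lambda UMIs, and 155 (46.4%, 41 to 51.9%) lay between. The kappa share hangs on these limits and was 25.1% with at least 10 light chain UMIs and 90% Igkc. The 9 lambda members had 0 to 2 Igkc UMIs and 5, 15 and 54 lambda UMIs as the lowest, median and highest counts. Their low Igkc counts follow from the limit that chose them, and among other members no 10% step of the Igkc share was empty. The 155 between had a median of 20 Igkc and 10 lambda UMIs. All 39 immunoglobulin-high members were kappa, with a median of 2309 Igkc and 35 lambda UMIs. Of 295 other members with enough UMIs 131 were kappa, 9 lambda and 155 mixed, and Igkc made up 73.6% of their light chain UMIs, against 98.7% in immunoglobulin-high members. Iglc2 and Iglc3 are nearly identical in sequence, and how reads shared between them were counted is not given in the sources used here.

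**Figure D3:**
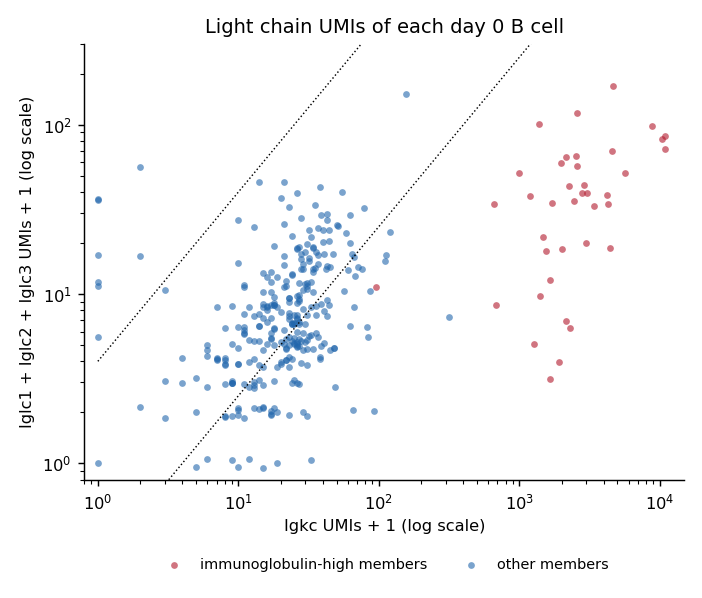
Lambda (Iglc1, Iglc2 and Iglc3) UMIs against Igkc UMIs of each day 0 B cell, both plus 1 and on log scales, with points shifted slightly in the vertical direction to separate ties. Between the dotted lines neither class reaches about 80% of the light chain UMIs: the 39 immunoglobulin-high members (red) all lie on the kappa side, and 155 of the other members (blue) lie between the lines.

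Light chain UMIs in barcodes of other cell types differed by class. Igkc had 249 CPM in macrophages, 196 in endothelial cells, 78.6 in mature T cells and 23.2 in AT1 cells, against 6600 CPM in other members. The highest immunoglobulin share of a barcode was 22.8% in macrophages and 16.9% in endothelial cells. In 414 mature T cells 94 Igkc UMIs lay in 40 barcodes, and in 484 AT1 cells 39 Igkc UMIs lay in 36 barcodes. The 666 macrophages held 886 Igkc UMIs and the 1320 endothelial cells 543. The 155 mixed members held at least 2 lambda and at least 3 Igkc UMIs each. The source of the second class of UMIs was not tested.

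Igha and Jchain were also found outside the members. Of 47418 Igha UMIs in the library 62.7% were in immunoglobulin-high members, 0.865% in other members, 25.6% in 35 kept barcodes with at least 10% immunoglobulin UMIs that missed the rule, 6.08% in all other kept barcodes and 4.75% in barcodes that were not kept. Jchain was divided similarly, with 68.5% of 25526 UMIs in immunoglobulin-high members and 21.4% in those 35 barcodes. Of the 35, which had a median of only 1126 UMIs, 18 had no UMI of the 3 rule genes, 10 had 1 or 2, and 7 had 3 or more. A Cd3d or Cd3e UMI was found in 8 of the 35. The count of 39 immunoglobulin-high members is therefore set in part by the rule.

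An Igha UMI was found in 17.7% of B cells, 89.7% of immunoglobulin-high members and 8.33% of other members (5.47 to 12.1%). Among 8 other cell classes of this library, which should not transcribe it, the share ran from 2.19% in smooth muscle cells to 7.21% in macrophages (5.36 to 9.44%), whose median depth of 4673 UMIs was above the 2440 UMIs of other members. After thinning to 1000 UMIs it was 4.5% in other members, 3.55% in macrophages and 0.664% in AT1 cells. The intervals of other members and macrophages overlapped. The Igha UMIs of other members were unevenly spread: 8 of the 25 members with any had 1 UMI, and 3 members with 192, 88 and 65 Igha UMIs, which also had 63, 17 and 17 Jchain UMIs and no more than 2 Ighm UMIs, held 84.1% of them. Of 10 other members with at least 4 Igha UMIs 7 had no Ighm UMI. Jchain had a UMI in 2.33% of other members, within the range of 0.243 to 6.16% in those 8 classes.

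Igkc, Ighm and Ighd behaved differently. Igkc had a UMI in 97.9% of B cells and in 6.08 to 15.5% of barcodes of the 8 classes. Ighd had a UMI in 64.3% of B cells and in at most 2.07% of any of the 8 classes. Ighm had a UMI in 83.8% of B cells, but in 33% of monocytes, 18.6% of mature T cells and 17.1% of neutrophils, and in 1.74% of endothelial cells. The Igha count per Igkc count was 0.239 in immunoglobulin-high members and between 0.173 and 0.462 in the 8 classes. The Ighm count per Igkc count was 0.276 in other members, 0.0497 in endothelial cells, 1.44 in mature T cells and 3.38 in monocytes.

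**Figure D4:**
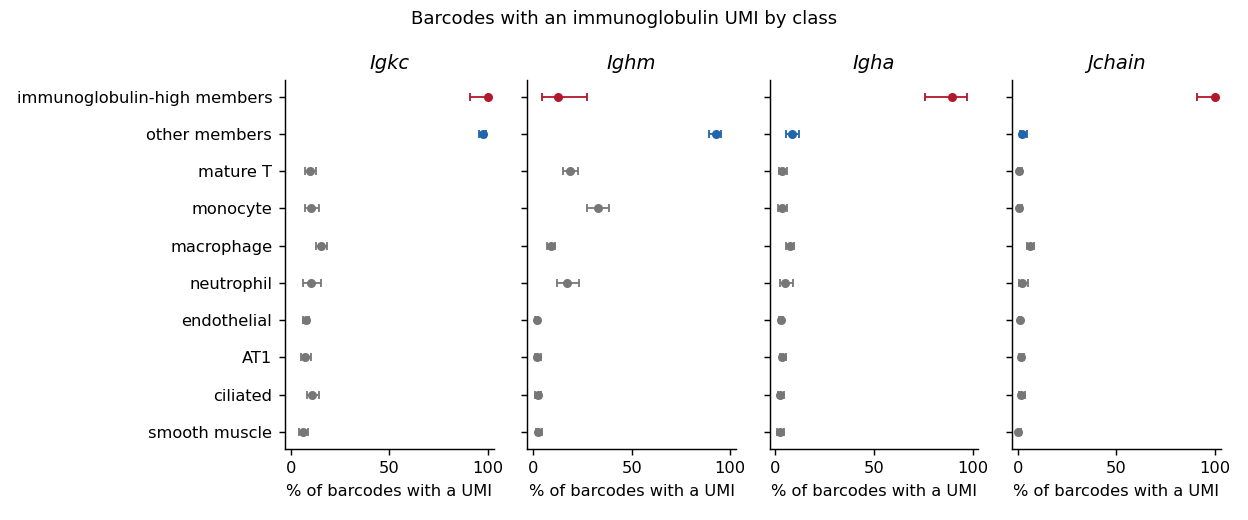
Share of barcodes with at least 1 UMI of Igkc, Ighm, Igha and Jchain (horizontal axes, %) in immunoglobulin-high members, other members and 8 other cell classes of day 0, with 95% Clopper-Pearson intervals as bars. Igha and Jchain are near 100% only in immunoglobulin-high members (89.7% and 100%), Ighm is highest in other members (93%), and Igkc is near 100% in both.

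Immunoglobulin-high members were compared with other members in CPM of the UMIs outside the immunoglobulin genes and Jchain, since those chose the groups. Of 3433 examined genes 620 (18.1%) were higher and 841 (24.5%) lower in immunoglobulin-high members, with a median log2 ratio of -0.08. These counts depend on the scale and on the members: over all UMIs, which lowers every log2 ratio by 0.78, 187 were higher and 1532 lower, and in the 173 members without UMIs of other lists 944 were higher and 255 lower. The 11 immunoglobulin-high members among these 173 held 40830 such UMIs, so that 250 of the 944 rest on 3 UMIs or fewer and 288 on 10 or more, while all 620 of the comparison over all members rest on 10 or more. All 12 examined genes of the plasma cell list were higher, with a median log2 ratio of 4.32. Tnfrsf17 (chr16:11313812-11320074, plus strand) had 0, 3 and 22 UMIs as the lowest, median and highest count in immunoglobulin-high members, 34 of which had a UMI, and was found in 1 of 300 other members. Derl3 was found in 35 of 39 immunoglobulin-high members and in 1 of 300 other members. The secretory genes Sec11c, a signal peptidase subunit, and Txndc5, a protein disulfide isomerase, had 2895 and 1456 CPM in immunoglobulin-high members, against 206 and 71 CPM in other members.

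The factors of plasma cell formation were higher as well. Xbp1, which expands the secretory apparatus, had 814 CPM in immunoglobulin-high members and 74.4 CPM in other members (10.9-fold, 8.46 to 14.2). Prdm1, which encodes Blimp-1, had 218 CPM in immunoglobulin-high members and 7.7 CPM in other members (28.3-fold, 13.8 to 65.3). Irf4 had 222 CPM in immunoglobulin-high members and 18.8 CPM in other members (11.8-fold, 7.07 to 20.4), and Sdc1, which encodes the plasma cell surface marker CD138, 165 CPM in immunoglobulin-high members and 18.8 CPM in other members. Each was found in 24 to 37 of the 39 immunoglobulin-high members. Mzb1, a chaperone of antibody assembly, had 16 UMIs in 12 immunoglobulin-high members and 0 UMIs in other members. With a floor of 3 UMIs Mzb1 was 25.6-fold higher.

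Mature B cell genes were lower together. Of 10 examined B cell identity genes 8 were lower and 0 higher, with a median log2 ratio of -2.87. Pax5 had 0 UMIs in all 39 immunoglobulin-high members and a UMI in 144 of 300 other members (195 CPM). Fcmr, Cd22, Bcl11a, Ccr7 and Spib also had 0 UMIs in immunoglobulin-high members, and Fcmr, Cd22, Bcl11a and Ccr7 had 227, 107, 155 and 197 CPM in other members. Ms4a1, a gene of the rule, had a UMI in 3 of 39 immunoglobulin-high members and 235 of 300 other members. Ebf1 remained present in 20 of 39 immunoglobulin-high members, at 317 CPM, against 1422 CPM in other members (0.223 times, 0.175 to 0.28). All 11 examined MHC class II genes were lower: H2-Aa had 230 CPM in immunoglobulin-high members and 2765 CPM in other members, and Cd74 3138 CPM in immunoglobulin-high members and 8258 CPM in other members. All 8 examined inhibitors were lower, and of 17 signalling genes 10 were lower and 1 (Rasgrp3) higher.

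Some B cell genes did not follow. Pou2af1 was higher in immunoglobulin-high members, at 333 CPM, against 127 CPM in other members (2.63-fold, 1.98 to 3.47), and Tnfrsf13b at 276 CPM, against 108 CPM. Blnk had 173 CPM in immunoglobulin-high members and 110 CPM in other members, and Mef2c 909 CPM in immunoglobulin-high members and 692 CPM in other members, both within 2-fold. Of 10 examined homing genes 7 were lower and 2 higher. The higher ones were Itga4, an integrin subunit used for entry into mucosa (966 CPM in immunoglobulin-high members, 285 in other members), and S1pr4. Ccr10, the receptor that guides IgA plasma cells to mucosal epithelia, is in none of the lists. It had 43 UMIs in 21 of 39 immunoglobulin-high members and 0 UMIs in other members. With a floor of 3 UMIs Ccr10 was 68.9-fold higher (22.1 to 347).

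Other genes with the largest ratios were Ctla4, Ly6c2, Eaf2, Prg2, Pycard, Tent5c, Tubb2b and the agouti gene a. Pycard, an inflammasome adaptor, had 0, 22 and 92 UMIs as the lowest, median and highest count in immunoglobulin-high members, against 0, 0 and 5 UMIs in other members (41.3-fold, 34.1 to 50.5). Eaf2 and Tent5c, an elongation factor partner and a poly(A) polymerase known from plasma cells, were found in 36 and 35 of 39 immunoglobulin-high members, against 6 and 11 of 300 other members. Ly6c2 and Cd28, counted above as monocyte and T cell markers, were each found in 21 of 39 immunoglobulin-high members, where Csf1r, Ccr2, Cd3g, Trac and Lck had 0 UMIs. Of 8 examined cycling genes 7 were higher, but 75.9% of 58 Mki67 UMIs were in 1 immunoglobulin-high member.

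The genes with the lowest ratios in immunoglobulin-high members were S100a9, Scgb3a1, S100a8, Chil3, Lyz2, Tyrobp, Scgb3a2, Il1b, Ccl6 and Gngt2, which are genes of myeloid or airway cells. S100a9 had 0 UMIs in immunoglobulin-high members and 3131 CPM in other members, where 41 of 300 held it. Of 43 members with at least 2 UMIs of the neutrophil list 0 were immunoglobulin-high, and of 55 with at least 2 of the macrophage list 1 was. Among the members without UMIs of other lists, Scgb3a1 and Ccl6 had 0 UMIs in immunoglobulin-high members and 5 to 6 UMIs in other members, which is too few for a ratio. The part of other cell types' UMIs in the low ratios was not tested.

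**Figure D5:**
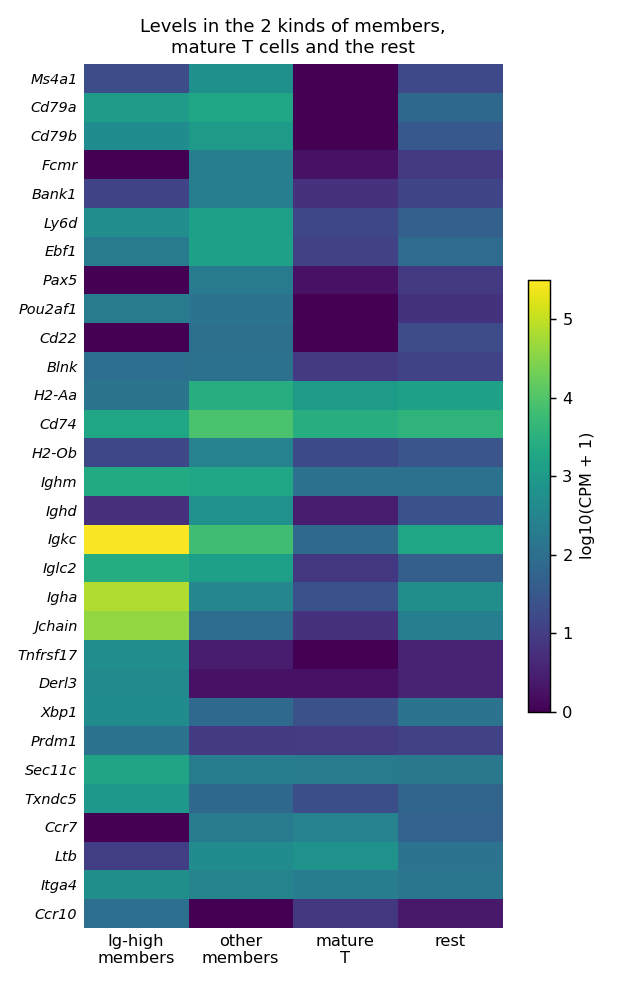
Level of genes, as log10(CPM + 1) over all UMIs, in immunoglobulin-high members, other members, mature T cells and the rest of the day 0 library. From top to bottom the rows pass from B cell genes (Pax5 and Fcmr at 0 in immunoglobulin-high members, Cd79a, Cd79b and Ms4a1 at 0 in mature T cells by the choice of that class) through MHC class II and immunoglobulin genes to genes of the plasma cell list and of homing, where Tnfrsf17 and Ccr10 are high in the first column.

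The reporters were measured because the sample had been sorted for GFP. EGFP had 66 CPM in B cells (54 to 79.8), against 223 CPM in the rest and 1550 CPM in AT1 cells, where 86.8% of barcodes had a UMI. It was found in 19.2% of B cells, against 10.6% of mature T cells and 17.3% of macrophages. tdTomato had 237 CPM in B cells (214 to 262), against 244 CPM in the rest and 114 CPM in AT1 cells. Of 111 B cells with at least 2 reporter UMIs 5 had at least 80% EGFP (4.5%, 1.48 to 10.2%), 73 at least 80% tdTomato and 33 lay between. Of 380 such AT1 cells 82.1% had at least 80% EGFP. EGFP had 64.4 CPM in monocytes (52.1 to 78.7), 99.5 CPM in endothelial cells (88.1 to 112) and 41 CPM in mature T cells (30.3 to 54.2). In the 173 B cells without UMIs of other lists EGFP was lower than over all B cells, at 31.7 CPM and with a UMI in 7.51% of them.

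The same rule found few barcodes in culture. At day 8 it found 19 of 7893 kept barcodes (0.241%, 0.145 to 0.376%), at day 13 it found 1 of 9311, and at day 20 it found 0 of 9178, which allows a share of up to 0.0327% by the limit of 3 counts. The 19 barcodes of day 8 had Ighm and Igkc UMIs in all 19, Ighd in 14, and no Igha or Jchain UMI, and their highest immunoglobulin share was 3.28%. They had 3992 CPM of Igkc and 1248 CPM of Ighm. Over all 7893 kept barcodes of day 8, an Ighm UMI was found in 4092, at 72.8 CPM. An Igkc UMI was found in 26 and an Ighd UMI in 17 of them. The presence of an Ighm UMI was therefore not particular to the 19 barcodes. The barcode of day 13 had 67.3% immunoglobulin UMIs, mostly Igkc and Ighm, and no Igha UMI. With 1 library per day these counts carry no replicate check, and enrichment for EpCAM before loading cannot be told apart from culture time.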

How the data were processed

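The data were UMI counts per gene and barcode, deposited by the authors as 1 filtered matrix per day for 4 libraries (sorted cells of day 0 and organoids of days 8, 13 and 20). Per the labels' protocols, single-cell suspensions were prepared with a 3' kit. Cell Ranger 7.0.1 and the build mm10 are named per the submitters' processing notes; these sources state neither the gene annotation nor whether doublets or free RNA were removed. The files list 22547 features, and rows with the same symbol were summed to 22526 symbols.

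Counts were read and summed with Python 3.11.15, numpy 2.4.6, pandas 2.3.3 and scipy 1.17.1, figures were drawn with matplotlib 3.10.9, and doublet scores came from Scrublet in scanpy 1.11.5, as an alternative only. No doublet was removed from the reported values. Levels are CPM of UMIs summed over a class. Intervals are exact Poisson for CPM, exact conditional Poisson for ratios and Clopper-Pearson for shares, all at 95%, and cover counting error only, because each day had 1 library and cells are not replicates. A gene was examined at 50 CPM or more in either class, and a class with under 3 UMIs was set to 3 UMIs. Shares were also computed after thinning each barcode to 1000 UMIs, leaving out shallower barcodes. The calls were checked on simulated counts.

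The rest is every other kept barcode of day 0. The other classes were kept non-members without a UMI of the 3 B cell genes and with at least 3 UMIs over 3 class genes, 2 of them detected, in 1 class only: macrophages (Chil3, Marco, Mrc1), monocytes (Csf1r, Fcgr4, Cx3cr1), neutrophils (Retnlg, Csf3r, Cxcr2), endothelial cells (Cldn5, Cdh5, Pecam1), AT1 cells (Rtkn2, Clic5, Spock2), ciliated cells (Foxj1, Tmem212, Ccdc153), smooth muscle cells (Myh11, Cnn1, Des) and mature T cells (Cd3d, Cd3e, Cd3g, with no Dntt, Rag1, Rag2 or Ptcra). A class of 10 dendritic barcodes, chosen in the same way by Flt3, Cd209a and Clec9a, was used for the MHC class II genes only. The 391 immunoglobulin genes, Jchain included, were left out of both the genes and the CPM sum when immunoglobulin-high and other members were compared.

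Named genes were the 15 highest and 10 lowest ratios against the rest and the 8 highest and 8 lowest against mature T cells among genes of at least 100 CPM, without mitochondrial, ribosomal, hemoglobin, sex-linked, immunoglobulin segment or predicted genes, plus members of the lists; a few of these are counted but not reported here by name. Genes named between immunoglobulin-high and other members, among them Ccr10, were chosen after their values were seen. The members and lists were chosen with earlier results of these data known. Gene positions are from GENCODE M21 and promoter windows from RefSeq, both on GRCm38.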

Additional observations from a re-analysis of the deposited data

Results flagged for a closer look

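The day 8 organoid library held 19 barcodes that met the B cell rule, which is above the limit of 3 counts that a count of 0 allows. They had a median of 3264 UMIs, and none shared its barcode sequence with a day 0 member. Their Cd74 level was 3499 CPM, and Igha and Jchain had 0 UMIs in them. In day 0 the 300 other members, also low in immunoglobulin, had 346 CPM of Igha and 85.4 CPM of Jchain, with a UMI in 25 and 7 of them. The 18769 and 10947 CPM over all B cells of day 0 came mostly from the 39 immunoglobulin-high members.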

How the results depend on the processing

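Each day had 1 library, so no value was checked across replicates, and depth limited genes near 50 CPM. No paired analysis was possible because there was 1 library per day and all the compared classes came from the day 0 library. Of 1740 recomputed ratios of 162 genes 1416 moved by less than 0.58 on the log2 scale, 312 moved by more and 12 reversed. Asking for 1000 detected genes left a B cell share of 4.02% and an Igha share of 24.5%. Leaving immunoglobulin genes out of the CPM sum gave 270 CPM of tdTomato. Means over per-cell CPM gave 278 genes higher than the rest and a log2 ratio of -0.11 for Ly6c2. With a minimum of 20 CPM, 237 genes were higher and 1624 lower than the rest, 828 higher and 501 lower than mature T cells, and 1066 higher and 1627 lower in immunoglobulin-high than in other members. With a fold of 4 these counts were 59 and 303, 172 and 98, and 200 and 406. The kappa share was 56.8% after thinning to 1000 UMIs and 25.1% with at least 10 light chain UMIs and 90%. The removal of every member with 2 UMIs of any other marker list left 0 members and gave no value. Removing the 523 highest Scrublet scores took out 33 members, none of them immunoglobulin-high, and moved no count by over 1.5 times.

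The remaining alternatives were chosen after seeing the data. Without immunoglobulin-high members the kappa share was 44.4%, the Igha share 8.33%, and the log2 ratios against the rest were -1.45 for Jchain, -0.57 for Igha, -0.35 for Creld2 and -2.37 for Ly6c2. Without members with 2 UMIs of another list, club and AT2 lists left aside, the B cell share was 2.35%, 277 genes were higher and 1218 lower than the rest, the Igha share was 12.1%, EGFP 31.7 CPM and tdTomato 192 CPM, and 944 genes were higher and 255 lower in immunoglobulin-high members. Log2 ratios then reversed to -3.26 for Ly6c2 against the rest and -1.34 for Scgb3a1 against mature T cells; Ly6c2 is in the monocyte list, so the removal itself takes out the members that hold it. Between immunoglobulin-high and other members they came to 2.57 for Scgb3a1, 2.31 for Chil3, 2.31 for Ccl6, 0.37 for Tyrobp and 0.07 for Scgb3a2, but Chil3 is in the macrophage list, the first 3 genes had 0 UMIs and Tyrobp 1 UMI in the 11 immunoglobulin-high members left, where the floor of 3 UMIs is worth 73.5 CPM and sets the sign. CPM over all UMIs gave 187 higher and 1532 lower in immunoglobulin-high members. The cause of the other moves was not tested.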
